A study of Zea mays with 18 samples.

Results

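LATERAL ORGAN BOUNDARIES DOMAIN (LBD) proteins are plant transcription factors that share a DNA-binding domain of the same name. The transcripts described here are the LBD members tied to nitrate signalling or to root formation. They comprised LBD37 (GRMZM2G017319, transcript T01), LBD38 (GRMZM2G177110_T01), RTCS (rootless concerning crown and seminal roots, GRMZM2G092542, transcript T01) and RTCL (RTCS-like, AC149818.2_FGT009), which are 4 of the 39372 probes other than controls on the array. Members were chosen by transcript ID and not by level, and each was measured by 1 probe. LBD37 and LBD38 were, however, named in the study because they were modulated on these arrays, LBD37 in Lo5 and LBD38 in T250 after 4 d, so those contrasts are not independent evidence for these transcripts.

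In Arabidopsis, LBD37 and LBD38 repress nitrate-responsive genes, among them those for nitrate uptake and assimilation, and genes of anthocyanin biosynthesis. In maize, RTCS acts in the auxin-dependent initiation of the seedling's seminal roots and of the crown roots that later form the shoot-borne root system, and RTCL is its closest relative in the genome. The first pair is thus linked to how a root reads its N supply and the second to how many roots a plant forms.

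The study compared roots of maize inbred lines that differ in N-use efficiency (NUE), which is high in Lo5 and low in T250, using seedlings grown hydroponically in a nutrient solution without N. Roots were taken after 0, 1 and 4 d, the 0 d seedlings being those at the start of growth in that solution after germination and a period in a calcium sulfate solution that also held no N. Each of the 6 groups (Lo5 and T250 at 0, 1 and 4 d) had 3 arrays, 18 in all, each from the pooled roots of 3 seedlings, and according to the series' design text the replicates came from independent growth experiments. No array held roots of seedlings given N, so the days without N cannot be told apart from the age of the seedling, and each NUE class is represented by a single line. In whole roots, fewer cells of a type and less RNA per cell cannot be told apart either. The study annotated the transcripts by the maize reference genome, and whether a probe detects Lo5 and T250 sequence alike was not tested. Ratios between the lines thus compare probe signals.

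A level is given as log2 of the probe's signal over the 75th percentile of its array, so that 0 marks the 75th percentile and each unit is a doubling, and levels of different probes are not set against each other. Between 28868 and 32446 probes were well above background on an array, no spot was saturated and no spot of the 4 transcripts was marked as an outlier. The root hair gene rth3 was well above background on all 18 arrays, while 2 of 9 photosynthesis and 2 of 13 zein probes were. The array labelled Lo5 1 d replicate 3 went against its label: over the transcripts that most separated the lines at 0 d, an index set to 0 for T250 and 1 for Lo5 was 0.00589 on this array, between 0.959 and 1.08 on the 8 other Lo5 arrays and between -0.0411 and 0.0509 on the 9 T250 arrays. The main values of the 4 transcripts that include it are also given without it. The list results and the shares of all transcripts are given with it alone, and it enters the spread that all groups share. Between the lines over the 3 days, 7011 transcripts were called with it and 7829 without it.

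LBD38, one of the repressors of nitrate-responsive genes, was lower after 4 d without N in both lines. Its levels in Lo5 roots were 2.63, 3.65 and 2.79 at 4 d, against 4.86, 3.92 and 4.08 at 0 d. In T250 roots they were 2.92, 2.96 and 3.24 at 4 d, against 4.45, 3.88 and 4.18 at 0 d. All 4 d arrays thus lay below all 0 d arrays of their line. This separation was shown by 13.7% of all probes in Lo5, by 10.1% in T250 and by 2.82% in both lines.

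At 1 d the lines looked different for LBD38. T250 roots had 3.77, 3.60 and 2.77 at 1 d, all below the 3 T250 arrays of 0 d, which held for 4.81% of all probes. Lo5 roots had 5.40, 3.62 and 4.00 at 1 d and overlapped their 0 d arrays, as did the other members in Lo5 at 1 d, against 3.06% of all probes that lay below 0 d without overlap. The difference between the lines in the 1 d ratio, 0.84 (SE 0.62, 95% confidence interval -0.48 to 2.16), did not pass the test (limma, adjusted p = 0.975), nor did that of 1.01 without the array in doubt. Without the array in doubt the Lo5 ratio of 1 d to 0 d was 0.23, against 0.05 with it, and neither passed the test. None of the 4 members was called at 1 d, when 0.00976% of the transcripts were called in Lo5 and 0.00997% in T250.

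**Figure D1:**
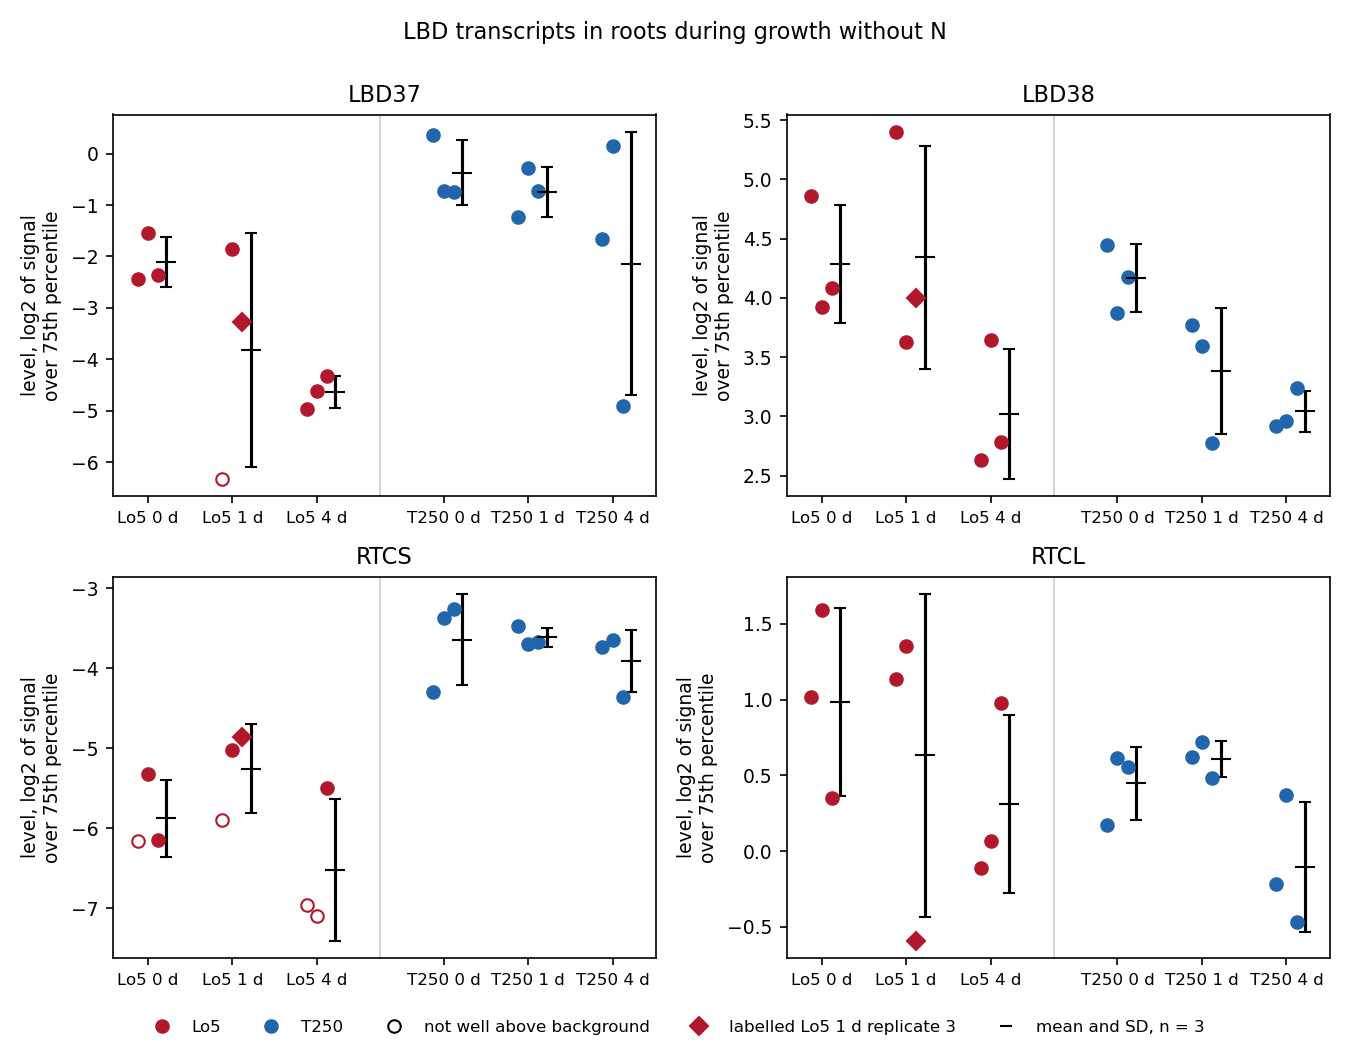
Levels of LBD37, LBD38, RTCS and RTCL (log2 of the signal over the array's 75th percentile) in Lo5 and T250 roots at 0, 1 and 4 d without N, each point 1 array, with the mean and SD of 3 arrays beside the points. Open points were not well above background and the diamond is the array labelled Lo5 1 d replicate 3. The 4 d points of LBD38 lie below the 0 d points in both lines, and the RTCS points of Lo5 all lie below those of T250.

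The log2 ratio of LBD38 at 4 d to 0 d was -1.27 (SE 0.44) in Lo5 and -1.13 (SE 0.44) in T250, a level 2.40 and 2.18 times lower. Neither ratio passed the test over all transcripts (limma, adjusted p = 0.473 in Lo5 and 0.283 in T250), in which a call needed an adjusted p of at most 0.05 and a log2 ratio of at least 1 either way. Such calls were few, as 0.0457% of the transcripts tested were called in Lo5 and 0.171% in T250 at 4 d, and none of the 4 LBD transcripts was among them. At an unadjusted p up to 0.05 stood 2 of the 4 in Lo5 (LBD37 and LBD38), against 7.57% of all transcripts, and 1 of the 4 in T250 (LBD38), against 13.2%. These counts hold the contrasts for which the study named LBD37 (Lo5) and LBD38 (T250). They therefore cannot show that the 4 changed more often than other transcripts.

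Averaged over both lines, LBD38 at 4 d was lower by a log2 ratio of -1.20 (SE 0.31, 95% confidence interval -1.86 to -0.53), with an adjusted p of 0.0698. In this comparison 1.03% of the transcripts were called. The call turned with the fit: with only the groups compared in the model the adjusted p was 0.0343, and without Lo5 1 d replicate 1, on which LBD38 was highest, it was 0.0303. These were the lowest values. The adjusted p reached 0.109 over the other alternatives and 0.157 with 1 array left out. Exact permutation tests of each member alone, exchanging 4 d and 0 d arrays within each line (400 arrangements, smallest two-sided p 0.005), gave unadjusted p of 0.005 for LBD38, 0.015 for LBD37, 0.05 for RTCL and 0.21 for RTCS. For LBD38 and LBD37 these averages include the contrast for which the study named the transcript, so their p are not independent support. The p of 0.005 for LBD38 also follows from its 4 d arrays lying below its 0 d arrays in both lines. That held for 2.82% of all probes, so this p adds nothing to the separation. The Lo5 and T250 ratios at 4 d differed by -0.14 (SE 0.62, 95% confidence interval -1.46 to 1.18), so a difference of a log2 unit either way lay within the interval.

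Within slides, which held up to 4 arrays each, the LBD38 contrast was smaller in part of the pairs. On the slides that carried both days of Lo5, the level at 4 d minus that at 0 d was -1.29 and -0.44, and on the slide that carried both days of T250 it was -1.26. With slide as a fixed block the average over both lines was -0.90 (adjusted p = 0.0910).

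The order of LBD38 levels across groups was Lo5 1 d (4.34 ± 0.94, SD, n = 3, or 4.51 without the array in doubt), Lo5 0 d (4.29 ± 0.50), T250 0 d (4.17 ± 0.28), T250 1 d (3.38 ± 0.53), T250 4 d (3.04 ± 0.17) and Lo5 4 d (3.02 ± 0.55). Neighbours among the highest 3 groups differed by less than their SDs, and those among the lowest 3 by less than the larger SD of each pair. The step between T250 0 d and T250 1 d, 0.79, was larger than the SD of either group, and the arrays of these groups did not overlap. No call was made for LBD38 between the lines: the log2 ratio of Lo5 to T250 was 0.12 at 0 d, -0.02 at 4 d and 0.35 (95% confidence interval -0.19 to 0.89) as the mean of the 3 days, or 0.41 without the array in doubt.

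LBD37, the second repressor of this pair, was lower in Lo5 roots than in T250 roots. Lo5 arrays had -2.43, -1.55 and -2.35 at 0 d, against 0.36, -0.72 and -0.75 in T250. At 1 d they had -6.32, -1.85 and -3.27 in Lo5, against -1.23, -0.28 and -0.73 in T250, the first Lo5 value being not well above background. At both days all Lo5 arrays lay below all T250 arrays, as they did for 14.2% of all probes at 0 d and 8.07% at 1 d.

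At 4 d, Lo5 roots had LBD37 levels of -4.96, -4.62 and -4.32, against -1.66, 0.15 and -4.90 in T250. T250 replicate 3 lay within the Lo5 range, so the lines overlapped at this day. That array's line index was -0.0404, like those of the other T250 arrays.

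As the mean of the 3 days, the log2 ratio of Lo5 to T250 for LBD37 was -2.43 (SE 0.64, 95% confidence interval -3.79 to -1.07), a level 5.41 times lower in Lo5 (limma, adjusted p = 0.00796). Differences between the lines were common, with 23.8% of the transcripts called in this comparison and 12.6% called with Lo5 lower. Without the array in doubt the ratio was -2.52 (adjusted p = 0.00828), and over the other arrays left out singly the adjusted p stayed between 0.000676 and 0.0176. With normexp background correction the ratio was smaller, -1.44 (adjusted p = 0.0336). Single days did not pass the test, with ratios of -1.74 at 0 d (adjusted p = 0.349) and -2.49 at 4 d (adjusted p = 0.125). The 0 d ratio was called in a fit of the compared groups alone (adjusted p = 0.0386) and not by the methods' t-test (adjusted p = 0.119). The 4 d ratio turned on the T250 arrays, being -3.88 (adjusted p = 0.0113) without T250 4 d replicate 3 and -1.35 (adjusted p = 0.462) without T250 4 d replicate 2.

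Only some slides held both lines at the same day. On them LBD37 in Lo5 minus T250 was -2.79 at 0 d, -5.08 at 1 d, and -5.11 and 0.29 at 4 d, the last of these being the pair with T250 replicate 3. With slide as a fixed block the mean over the days was -2.61 (adjusted p = 0.0262).

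During growth without N, LBD37 in Lo5 was lower at 4 d than at 0 d on all arrays, a separation in this direction shown by 13.7% of all probes. The log2 ratio was -2.52 (SE 1.10), or 5.74 times lower, with an adjusted p of 0.624. The spread used by this fit is shared by all groups, and for LBD37 the group SDs were unequal: 0.32 in Lo5 4 d and 0.49 in Lo5 0 d, but 2.28 in Lo5 1 d and 2.56 in T250 4 d. In a limma fit of the compared groups alone the SE was 0.31 and the adjusted p 0.0478, and by the methods' t-test, which also uses these groups alone, the SE was 0.34 and the adjusted p 0.239.

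On slides with both days, LBD37 in Lo5 at 4 d minus 0 d was -3.41 and -2.26. At 1 d the Lo5 ratio to 0 d was -1.70 (SE 1.10, adjusted p = 0.954). It was -1.98 without the array in doubt, -0.45 without Lo5 1 d replicate 1, which was not well above background, and -2.68 without Lo5 1 d replicate 2. Its 3 arrays at 1 d spanned 4.46 log2 units, more than the difference itself.

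In T250 the LBD37 ratio of 4 d to 0 d was -1.77 (SE 1.10, 95% confidence interval -4.12 to 0.58, adjusted p = 0.532). It rested on 1 array: without T250 4 d replicate 3 it was -0.39, and without T250 4 d replicate 2, the highest, it was -2.91. At 1 d it was -0.38, with the arrays of 1 d and 0 d overlapping.

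The 4 d ratios of LBD37 in Lo5 and T250 differed by -0.75 (SE 1.56, 95% confidence interval -4.08 to 2.58, adjusted p = 1.00). At 1 d they differed by -1.33 (SE 1.56, adjusted p = 0.997), and by -1.60 without the array in doubt. None of the 4 LBD transcripts was called for a difference in response between the lines by this test, which called 0.0168% of transcripts at 1 d and 0 of 29830 at 4 d. At an unadjusted p up to 0.05, 4.03% of the transcripts differed between the lines at 4 d, with none of the 4 among them. Across groups, LBD37 was highest in T250 0 d (-0.37 ± 0.63, SD, n = 3), followed by T250 1 d (-0.75 ± 0.48), Lo5 0 d (-2.11 ± 0.49), T250 4 d (-2.14 ± 2.56), Lo5 1 d (-3.82 ± 2.28, or -4.09 without the array in doubt) and Lo5 4 d (-4.63 ± 0.32). Of these neighbours, T250 1 d and Lo5 0 d alone stood apart by more than both their SDs with no overlap of arrays.

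**Figure D2:**
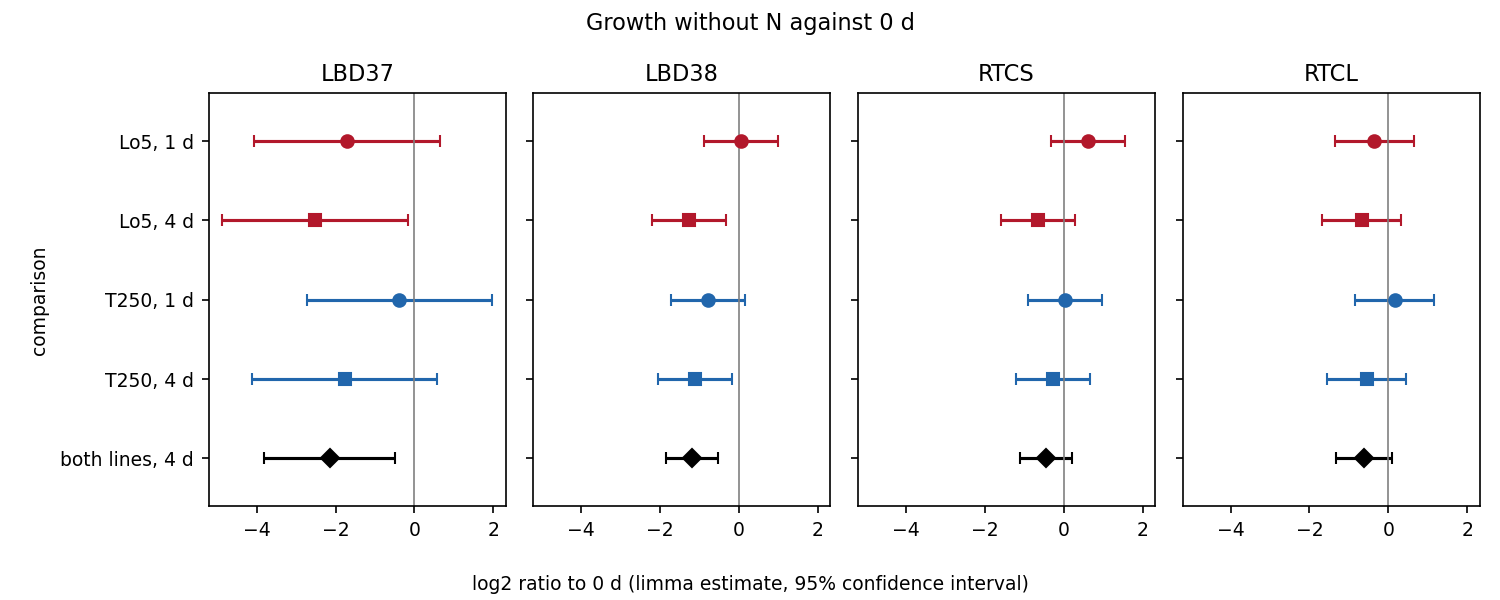
Log2 ratios of each LBD transcript at 1 d and 4 d to 0 d in Lo5 and in T250, and at 4 d to 0 d as the mean of both lines (limma estimates over all 18 arrays). Bars are 95% confidence intervals, and those of LBD38 at 4 d exclude 0 before adjustment over all transcripts.

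RTCS, needed in maize for seminal and crown root initiation, was low in Lo5 roots throughout. Its levels in Lo5 were -6.16, -5.32 and -6.15 at 0 d, against -4.30, -3.37 and -3.26 in T250. They were -5.89, -5.03 and -4.86 in Lo5 at 1 d, against -3.48, -3.70 and -3.68 in T250. At 4 d they were -6.96, -7.10 and -5.50 in Lo5, against -3.73, -3.65 and -4.36 in T250.

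All 9 Lo5 arrays, the one in doubt included, lay below all 9 T250 arrays, which held for 1.1% of all probes (at 0 d alone, 14.2%, and at 4 d alone, 22%). The array in doubt lay near T250 over the transcripts that most separated the lines. It thus lowers the 1.1%, and the share over the other Lo5 arrays was not computed. The array in doubt had the highest RTCS level of the Lo5 arrays, -4.86, and the lowest T250 level was -4.36. The RTCS probe was well above background on all 9 T250 arrays, but in Lo5 only on 2 of 3 at 0 d, 2 of 3 at 1 d and 1 of 3 at 4 d. It therefore entered the test through the T250 groups alone, and its ratios between the lines set a measured level against one that was in part undetected.

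The log2 ratio of Lo5 to T250 for RTCS was -2.23 (SE 0.44) at 0 d, with an adjusted p of 0.00514 (limma), where 13.8% of the transcripts were called. At 4 d, with 1 of 3 Lo5 arrays well above background, it was -2.61 (SE 0.44, adjusted p = 0.00132), where 20% were called. Without a filter on dim probes, so that entry did not depend on T250, the adjusted p was 0.00678 at 0 d and 0.00175 at 4 d. No fold is drawn from these ratios, since part of the Lo5 arrays did not measure RTCS above background. As the mean of the 3 days, an average added after seeing the data, the ratio was -2.16 (SE 0.25, limma, adjusted p = 2.59e-05), and -2.23 without the array in doubt. RTCS entered this test through T250 too, and 5 of the 9 Lo5 arrays measured it well above background. The small p thus does not give the size of the difference. The size of the ratio depended on the background correction: with normexp correction of the median signals the ratio was -0.54 at 0 d (adjusted p = 1.00), -1.88 at 4 d (adjusted p = 0.125) and -0.84 over the 3 days (adjusted p = 0.245), and none of these passed the test. By the methods' t-test the adjusted p at 0 d was 0.0622.

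On slides with both lines, RTCS in Lo5 minus T250 was -1.86 at 0 d, -2.42 at 1 d, and -3.31 and -2.75 at 4 d. In all 4 pairs the Lo5 array did not measure RTCS well above background. These differences thus set a measured level against an undetected one. The share of all probes whose 4 pairs ran in the same direction was not computed. With slide as a fixed block the ratio was -1.90 at 0 d (adjusted p = 0.0319) and -2.70 at 4 d (adjusted p = 0.00504).

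No call was made for RTCS between days within a line. The log2 ratio of 4 d to 0 d was -0.64 (SE 0.44, adjusted p = 0.796) in Lo5, where 2 of the 3 arrays at 4 d were not well above background, and -0.27 (SE 0.44, adjusted p = 0.844) in T250. At 1 d the ratios were 0.62 (SE 0.44) in Lo5, 0.42 without the array in doubt, and 0.03 in T250. The groups ordered by level were T250 1 d (-3.62 ± 0.12, SD, n = 3), T250 0 d (-3.64 ± 0.57), T250 4 d (-3.91 ± 0.39), Lo5 1 d (-5.26 ± 0.56, or -5.46 without the array in doubt), Lo5 0 d (-5.88 ± 0.48) and Lo5 4 d (-6.52 ± 0.89). Among these neighbours, the step between T250 4 d and Lo5 1 d alone was larger than the SDs of both groups beside it with no overlap of arrays.

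**Figure D3:**
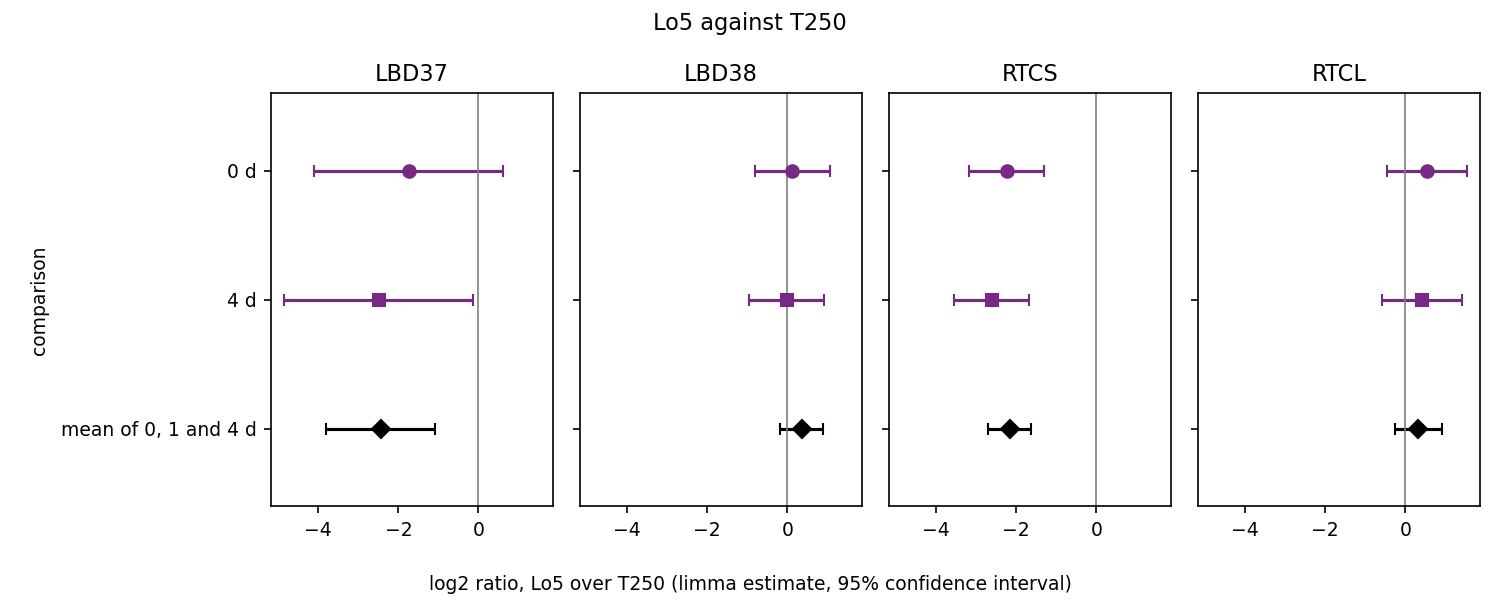
Log2 ratios of Lo5 to T250 for each LBD transcript at 0 d, at 4 d and as the mean of 0, 1 and 4 d (limma estimates over all 18 arrays), with bars for 95% confidence intervals. RTCS lies between -2.61 and -2.16, the mean over the days of LBD37 is -2.43, and the intervals of LBD38 and RTCL include 0.

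RTCL, the relative of RTCS, was well above background on all 18 arrays and was not called in any comparison. Lo5 roots had 1.01, 1.59 and 0.35 at 0 d, 1.14, 1.35 and -0.59 at 1 d and -0.11, 0.07 and 0.98 at 4 d. T250 roots had 0.17, 0.61 and 0.55 at 0 d, 0.62, 0.72 and 0.48 at 1 d and -0.21, 0.37 and -0.47 at 4 d. The lowest of the 18 values, -0.59, came from the array in doubt, and later days overlapped 0 d in each line, as the lines did at each day. At 1 d the overlap of the lines rested on that array, since the other Lo5 arrays lay above all T250 arrays. In T250, all arrays at 4 d lay below all arrays at 1 d. That contrast was not tested and the share of all probes showing it was not computed, so no fall is drawn from it.

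The log2 ratio of RTCL at 4 d to 0 d was -0.67 (SE 0.47, adjusted p = 0.807) in Lo5 and -0.55 (SE 0.47, adjusted p = 0.664) in T250. Averaged over both lines it was -0.61 (95% confidence interval -1.32 to 0.10, adjusted p = 0.370). At 1 d the Lo5 ratio was -0.35 with the array in doubt and 0.26 without it, and the T250 ratio was 0.16.

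As the mean of the days, RTCL in Lo5 over T250 was 0.33 (95% confidence interval -0.25 to 0.90), and 0.53 (adjusted p = 0.0571) without the array in doubt. The groups ordered by RTCL level were Lo5 0 d (0.98 ± 0.62, SD, n = 3), Lo5 1 d (0.63 ± 1.07, or 1.24 and thus the highest without the array in doubt), T250 1 d (0.61 ± 0.12), T250 0 d (0.45 ± 0.24), Lo5 4 d (0.31 ± 0.59) and T250 4 d (-0.10 ± 0.43). No neighbours in this order differed by more than the SDs of both.

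The wider LBD family was set beside these transcripts. Of 13 LBD transcripts recognised on the array, the 4 members included, 11 entered the test. LOB11 and LOB38 did not, since in no group were they well above background on every array. In Lo5 all 11 log2 ratios of 4 d to 0 d were below 0, with a median of -0.64, against a median of -0.10 and 58.6% below 0 over all transcripts tested. In T250, 8 of 11 were below 0, with a median of -0.27, against -0.05 and 53.4% over all transcripts. None passed the test in either line.

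The 7 tested relatives outside the 4 members had Lo5 ratios at 4 d with a median of -0.55. Among them were LOB33 (-0.59, SE 0.29), LOB15 (-0.64, SE 0.59) and IG1 (-0.27, SE 1.34), a regulator of leaf polarity and embryo sac development in maize. In T250, 4 of the 7 were below 0 and their median was -0.15. The largest gap between lines was that of LOB19, with -0.36 (SE 0.25) in Lo5 and 0.73 (SE 0.25) in T250, a difference of -1.09 (SE 0.35) with an adjusted p of 1.00. It met the study's threshold, which asks for an unadjusted p of 0.01 or less and a change of 1 log2 unit or more, and which 0.835% of all transcripts met for this difference. In the comparison of lines over the 3 days, 2 of the 11 LBD transcripts were called, LBD37 and RTCS, both lower in Lo5, against 23.8% of all transcripts called in either direction and 12.6% with Lo5 lower, so the count lay near that of all transcripts. RTCS entered that test through T250 alone.

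**Figure D4:**
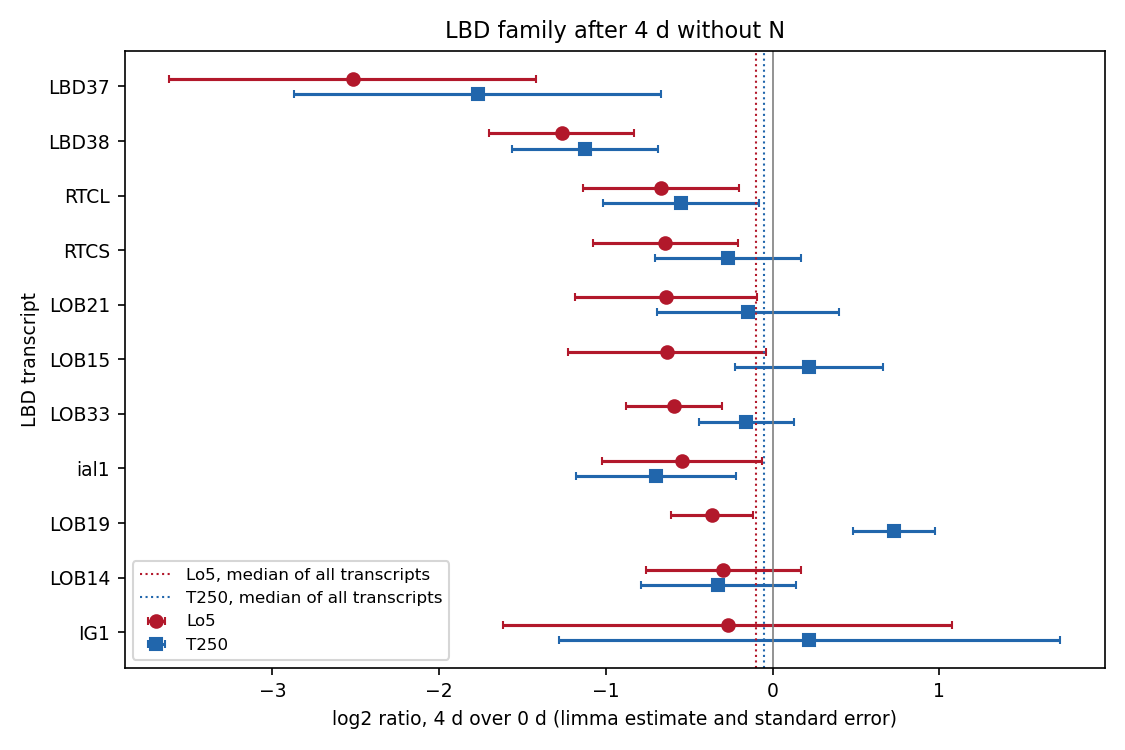
Log2 ratios of 4 d to 0 d for the 11 LBD transcripts tested, in Lo5 (circles) and T250 (squares), with the limma standard error as bars and dotted lines for the median of all transcripts in each line. All 11 Lo5 points lie below 0, and LBD37 and LBD38 have the lowest ratio in both lines.

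Transcripts of N uptake and assimilation and of anthocyanin biosynthesis were followed in 2 lists, and whether those listed are targets of LBD37 or LBD38 was not tested. Of 19 transcripts for nitrate and ammonium uptake and N assimilation, 15 were tested in Lo5 at 4 d and none was called, with a median log2 ratio of -0.04, against -0.10 over all transcripts. In T250 13 were tested and 1 rose, the nitrate transporter NRT1.5 (GRMZM2G044851_T01), which loads nitrate into the xylem in Arabidopsis, with a log2 ratio of 3.36 (SE 0.57, limma, adjusted p = 0.0428), where 0.171% of all transcripts were called. NRT1.5 was listed by its ID because the study named it, for its rise in T250 on these arrays. Its call is thus not independent evidence. No transcript was called in T250 at 4 d by the methods' t-test, in a fit of the compared groups alone, or without any 1 of Lo5 4 d replicate 2, T250 0 d replicate 2, T250 4 d replicate 1 and T250 4 d replicate 2, so the NRT1.5 call is lost there. In Lo5 the NRT1.5 ratio was 0.70 (SE 0.57), and the ratios of the lines differed by -2.66 (SE 0.81, adjusted p = 1.00).

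The high-affinity nitrate transporters had negative ratios at 4 d in T250 that did not pass the test, -6.46 (SE 1.53, adjusted p = 0.0963) for NRT2.2 (GRMZM2G010251_T01) and -4.61 (SE 1.04, adjusted p = 0.0740) for GRMZM2G010280_T01, whose gene carries NRT2.1 and NRT2.2 among its names, so these closely related transcripts may not be told apart by their probes. In Lo5 they were -3.13 (SE 1.93) for NRT2.2 and 0.42 (SE 1.04) for GRMZM2G010280_T01. The probes were well above background on 17 and 16 of the 18 arrays, with lowest levels of -8.35 and -8.44. Part of their levels was thus undetected, and no fold is drawn from these ratios. An ammonium transporter (GRMZM2G043193_T01) had 2.11 (SE 0.84) in Lo5 and 2.56 (SE 0.75) in T250, neither passing the test. NRT1.2 (GRMZM5G811593_T01) had -1.24 (SE 0.36) in T250 (adjusted p = 0.140). At the study's threshold 2 of the N transcripts were higher and 3 lower at 4 d in T250, and none in Lo5, against 3.89% of all transcripts in T250 and 1.68% in Lo5 in both directions. The list holds transcripts that the study named as changed on these arrays, NRT1.5 in T250 and NRT2.2 and the ammonium transporter in Lo5. These counts therefore cannot show that N transcripts changed more often than other transcripts.

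The 14 anthocyanin enzymes and regulators gave no call in either line at 4 d. Their median log2 ratio was -0.23 over the 12 tested in Lo5 and -0.26 over the 14 tested in T250. At the study's threshold, the chalcone synthase whp1 was lower in Lo5, with -3.05 (SE 1.00, adjusted p = 0.459), and a MYB transcript (GRMZM2G134279_T01) was higher in T250, with 2.07 (SE 0.40, adjusted p = 0.111). The MYB transcript was listed by its ID because the study named it, for a rise on these arrays, so its ratio is not independent evidence. The chalcone isomerase chi1 was lower in T250, with -1.05 (SE 0.33, adjusted p = 0.173). The study's threshold was met at 4 d by 3.89% of all transcripts in T250 and 1.68% in Lo5, in both directions. Between the lines, over the 3 days, 5 of 12 were called and all 5 were lower in Lo5, among them the anthocyanidin glucosyltransferase bz1 with -4.01 (SE 0.60), against 12.6% of all transcripts.

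RTCS is a target of auxin signalling, and 38 auxin response factor and Aux/IAA transcripts were followed. None was called at 4 d in either line, and their median log2 ratio was -0.16 over 31 in Lo5 and 0.28 over 30 in T250. At the study's threshold AUX36 (2.93, SE 0.64) and AUX18 (1.18, SE 0.34) were higher at 4 d in T250. They were 2 of the 30 tested, against 3.89% of all transcripts in both directions. Between the lines over the 3 days, 4 of 30 were called higher and 3 lower in Lo5, against 23.8% of all transcripts. The nitrate signalling regulators numbered 4, and none was called at 4 d: the TCP transcript AC234521.1_FGT006 had -1.09 (SE 0.33) in Lo5 and -0.69 (SE 0.33) in T250, and the TCP transcript GRMZM2G120151_T01 had -0.44 (SE 0.63) in Lo5 and 1.37 (SE 0.63) in T250. The probe of GRMZM2G120151_T01 was well above background on only 6 of the 18 arrays, with a median level of -7.69. Its ratios and their signs thus rest largely on undetected levels. The study named AC234521.1_FGT006 for a fall in Lo5 and GRMZM2G120151_T01 for a rise in T250 on these arrays. Those ratios are thus not independent evidence. NLP8 and TCP20 had ratios between -0.33 and 0.54.

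Across the 18 arrays, the transcript whose level ran most alike to that of LBD38 was GRMZM2G132218_T01 (Pearson r = 0.956, Spearman rho = 0.922), among 24666 others well above background on all arrays. It was followed by a lipoic acid synthase (GRMZM5G889705_T01, r = 0.882) and GRMZM2G080281_T01 (r = 0.858). For LBD37, among 27352 others well above background on at least 15 arrays, the closest was GRMZM2G406014_T01 (r = 0.910, rho = 0.884), followed by a calmodulin-binding protein transcript (GRMZM2G318843_T01, r = 0.861) and one for an indole-3-acetate glucosyltransferase (GRMZM5G832805_T01, r = 0.857). These r describe likeness over arrays that share lines, days and slides.

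The closest to RTCS was GRMZM2G403190_T01 (r = 0.933, rho = 0.932), followed by GRMZM2G417125_T01 (r = 0.929) and GRMZM2G152290_T01 (r = 0.926). RTCL had no transcript as close, GRMZM2G078092_T01 having r = 0.819 (rho = 0.880), GRMZM2G702144_T01 0.789 and GRMZM5G891967_T01 0.784. Without the array in doubt, the first transcript remained first for LBD38, LBD37 and RTCS, and was 4th for RTCL.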

How the data were processed

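Cy3-labelled root RNA was hybridised to one-colour Agilent arrays, and the authors extracted signals with Agilent Feature Extraction 10.5.1.1. The deposited processed signal is a background-subtracted intensity, and the deposited series table holds the same intensities scaled to the 75th percentile, to within 0.00655 on the log2 scale. Here each intensity was divided by its array's 75th percentile, as in the study's methods, and taken to log2. Outlier spots were left out, and 31653 probes were kept because every array of some group measured them well above background. One limma model (limma 3.58.1, R 4.3.3) covered the 6 groups, with Benjamini-Hochberg adjustment. In simulated data (Lo5 4 d against 0 d, 31653 transcripts, 200 changed by 2 log2 units), 92 were recovered with 7 false calls. The number of arrays limits the precision.

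The members and lists were chosen with earlier results of these data known. Averages over lines or days and slide as a fixed block were added after seeing the data. Lists came from symbols in the RefSeq gene table (matching 18727 of 39372 transcripts and 2 of the 4 members) and IDs in the study. Named from them are transcripts named in the study, those with the largest ratios at its threshold and, chosen after their values were seen, LOB15, LOB19, LOB33, IG1, NLP8 and TCP20. Alternatives covered the test (with the methods' t-test), blocks, normalization, background correction, filters and each array left out.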

Additional observations from a re-analysis of the deposited data

How the results depend on the processing

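Replicate numbers were not taken as pairs in the main fit. Deviations of arrays with the same number had a mean r of 0.069 over 45 pairs (-0.301 to 0.434). With other numbers the mean r was -0.0357 over 90 pairs (-0.617 to 0.548). Adding the replicate number as a block changed no call of the LBD transcripts (LBD38 at 4 d over both lines had -1.20 with an adjusted p of 0.0597), and it gave 0 calls over all transcripts at 4 d in Lo5, against 14, and 23 in T250, against 52.

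Across the other alternatives the calls over all transcripts ranged between 0 and 58 in Lo5 and between 0 and 363 in T250 at 4 d. With only the compared groups in the model LBD37 in Lo5 at 4 d had -2.52 and was called (adjusted p = 0.0478). With normexp correction the sign turned for LBD37 in Lo5 at 1 d (0.18) and its difference between lines at 1 d (0.58), LBD38 in Lo5 at 1 d (-0.18), its difference between lines at 4 d (0.24) and its Lo5 to T250 ratio at 4 d (0.24), and RTCS at 4 d in T250 (0.88) and over both lines (0.22). Without the slide scanned in another session it turned for LBD38 in Lo5 at 1 d (-0.19), LBD37 (0.23) and RTCS (-0.37) in T250 at 1 d, the 4 d differences between lines of LBD38 (0.0038) and RTCL (0.032), and LBD38 in Lo5 over T250 at 0 d (-0.024). None of these values was called, before or after, except LBD37 in Lo5 as given. The cause was not tested.

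With 1 array left out, the calls over all transcripts at 4 d ranged between 0 (without Lo5 0 d replicate 2) and 44 (without the array in doubt) in Lo5, and between 0 (without Lo5 4 d replicate 2) and 547 (without T250 4 d replicate 3) in T250, with 221 in T250 without the array in doubt. The ratio at 1 d ranged between -0.48 and 0.41 for LBD38 and between -0.71 and 0.26 for RTCL in Lo5, and between -0.30 and 0.22 for RTCS in T250. The differences between lines ranged between -0.87 and 0.10 for RTCL at 1 d and, at 4 d, between -2.13 and 0.39 for LBD37, -0.45 and 0.14 for LBD38, and -0.46 and 0.18 for RTCL. LBD38 in Lo5 over T250 ranged between -0.16 and 0.30 at 0 d and between -0.33 and 0.18 at 4 d.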
